A study of Mus musculus with 6 samples.

Results

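The genes described are 9 regulators and signals of the primitive streak: the transcription factor genes T (Brachyury), Eomes, Mixl1, Evx1, Mesp1, Gsc and Tbx6 and the ligand genes Wnt3 and Fgf8. Every array probe annotated to 1 of these genes was taken, whether or not it gave a signal above background. This gave 12 probes, of 45281 on the array, for 8 of the 9 genes. No probe carried the symbol T or Tbxt, so Brachyury itself is not analysed here and the values below concern the other members. Eomes, Mixl1, Fgf8 and Tbx6 had 2 probes each, and Evx1, Mesp1, Gsc and Wnt3 had 1 each.

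The RNA came from mouse embryonic stem cells of the E14 line (strain 129/Ola), of 2 Lsd1 genotypes with 3 Illumina bead arrays each. Lsd1 (current symbol Kdm1a) encodes an enzyme that takes methyl groups off histone H3 at lysine 4. In Δ3/Δ3 cells exon 3 was deleted from both alleles, and in Lox/Δ3 cells one allele carried the deletion and the other a loxP-flanked (Lox) copy, so the controls carried 1 deleted allele too. The labels do not say how the second allele was recombined or whether the samples of a genotype came from separate clones, and p-values therefore measure the spread between these samples.

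The primitive streak is the site in the early embryo where epiblast cells leave the epithelium to form mesoderm and definitive endoderm. Its formation depends on Wnt, Nodal and BMP signals, and the T-box factors Brachyury and Eomes act at the head of the response. Undifferentiated embryonic stem cells transcribe these genes little. In RNA from a whole culture, fewer cells of a type and less RNA per cell cannot be told apart.

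The targeted gene was checked first. The probe of Kdm1a (ILMN_1254253) had log2 values of 10.56, 10.21 and 10.42 on the Δ3/Δ3 arrays, against 12.07, 11.76 and 12.02 on the Lox/Δ3 arrays. The groups did not overlap, and Kdm1a fell by 1.56 on the log2 scale (SE 0.15, limma Benjamini-Hochberg adjusted p = 0.013, n = 3 each). Where the probe lies relative to exon 3 was not examined. The call was lost without any 1 of the Δ3/Δ3 arrays (limma adjusted p 0.0755 to 0.0944). The arrays detected 40.9% to 43.7% of their probes, with median raw signals of 73.8 to 83.7. Across genes, which are no independent replicates, Pearson correlations were similar between arrays of one genotype (0.977 to 0.99) and between genotypes (0.966 to 0.985). As for the labelled cell type, all 12 listed pluripotent cell markers passed the detection filter. In limma 0 of them passed the threshold and 0 had an unadjusted p under 0.05, where 18.2% of all genes were under it. Their median log2 difference was -0.082, and the 2 with the smallest p were Utf1 at -0.41 and Pou5f1 at -0.22 (limma adjusted p = 0.335 and 0.451).

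Of the 8 genes with a probe, 4 passed the detection filter, which asked for 3 or more of the 6 arrays with a detection p under 0.05, compared with 56.2% of all 19057 annotated genes. These were Eomes, Tbx6, Evx1 and Gsc, by 1 probe each. Sequence upstream of these genes is printed because they are the members whose transcripts the arrays measured. Each line gives the 250 bases before the annotated start from RefSeq (GRCm38.p6), 5′ to 3′ on the gene's strand, for Eomes (chr9:118477939-118478188, plus strand), Tbx6 (chr7:126781233-126781482, plus strand), Evx1 (chr6:52313248-52313497, plus strand) and Gsc (chr12:104473237-104473486, minus strand). Capitals mark matches to 3 motifs searched on both strands: AGGTGT (reverse ACACCT), a core of the T-box half-site, CTTTGAT (reverse ATCAAAG), bound by TCF/LEF factors, and the TATA box TATAAA (reverse TTTATA).
Eomes: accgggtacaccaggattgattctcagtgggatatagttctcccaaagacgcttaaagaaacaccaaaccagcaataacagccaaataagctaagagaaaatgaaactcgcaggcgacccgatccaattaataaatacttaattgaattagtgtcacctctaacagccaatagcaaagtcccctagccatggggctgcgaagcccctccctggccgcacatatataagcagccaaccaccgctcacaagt
Tbx6: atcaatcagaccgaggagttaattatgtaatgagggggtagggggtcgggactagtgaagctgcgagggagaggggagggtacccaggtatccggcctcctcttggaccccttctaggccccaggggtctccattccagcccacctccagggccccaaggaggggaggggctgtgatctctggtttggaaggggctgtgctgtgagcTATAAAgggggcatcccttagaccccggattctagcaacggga
Evx1: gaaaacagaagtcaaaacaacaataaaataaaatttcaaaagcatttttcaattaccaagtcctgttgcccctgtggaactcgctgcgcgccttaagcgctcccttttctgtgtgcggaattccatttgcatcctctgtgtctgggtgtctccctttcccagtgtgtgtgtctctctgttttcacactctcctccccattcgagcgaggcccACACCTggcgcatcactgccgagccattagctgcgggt
Gsc: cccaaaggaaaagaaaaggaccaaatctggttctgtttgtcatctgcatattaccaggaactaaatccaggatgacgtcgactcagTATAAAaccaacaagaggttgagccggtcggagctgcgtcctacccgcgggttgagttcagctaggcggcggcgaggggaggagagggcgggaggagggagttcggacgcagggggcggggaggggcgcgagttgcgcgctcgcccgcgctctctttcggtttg
Evx1 held the T-box core, first base 38 bases before the start, a match found in 11.8% of all 32851 promoters of the same length. Gsc and Tbx6 held the letters TATAAA, 164 and 43 bases before the start, a match found in 12.4% of promoters. Only these exact letters were searched, so variants of the TATA box, such as tatataag in the Eomes window, are not marked. CTTTGAT, found in 3.21% of promoters, was absent from these 4 windows and present in that of Mesp1, 31 bases before the start. Mesp1 also held the T-box core, as did T, 14 bases before its start, and the Wnt3 window held no match. None of the marked matches overlapped. The windows had 8 (Eomes), 6 (Tbx6), 10 (Evx1) and 22 (Gsc) CpG dinucleotides, against a median of 6 over all promoters. A match describes these letters and is not evidence of binding. Of the 9 members 7 were in the promoter table, the others being Mixl1 and Fgf8.

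All member signals were weak. Over the 12 probes and 6 arrays the raw signal lay between 46.5 and 186 linear units, and the lowest signal that counted as detected was 83.8 to 103 depending on the array. The Δ3/Δ3 arrays detected 5, 6 and 4 of the 12 probes, against 2, 4 and 3 on the Lox/Δ3 arrays. Of all probes they detected 42.2%, 43.4% and 43.7%, against 40.9%, 42.9% and 43% on the Lox/Δ3 arrays. The limit of 103 was that of Lox/Δ3 array 1, which detected 2 member probes. Of the 12 probes 2 were detected on all 6 arrays, 1 for Eomes and 1 for Tbx6, and 6 on none.

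**Figure D1:**
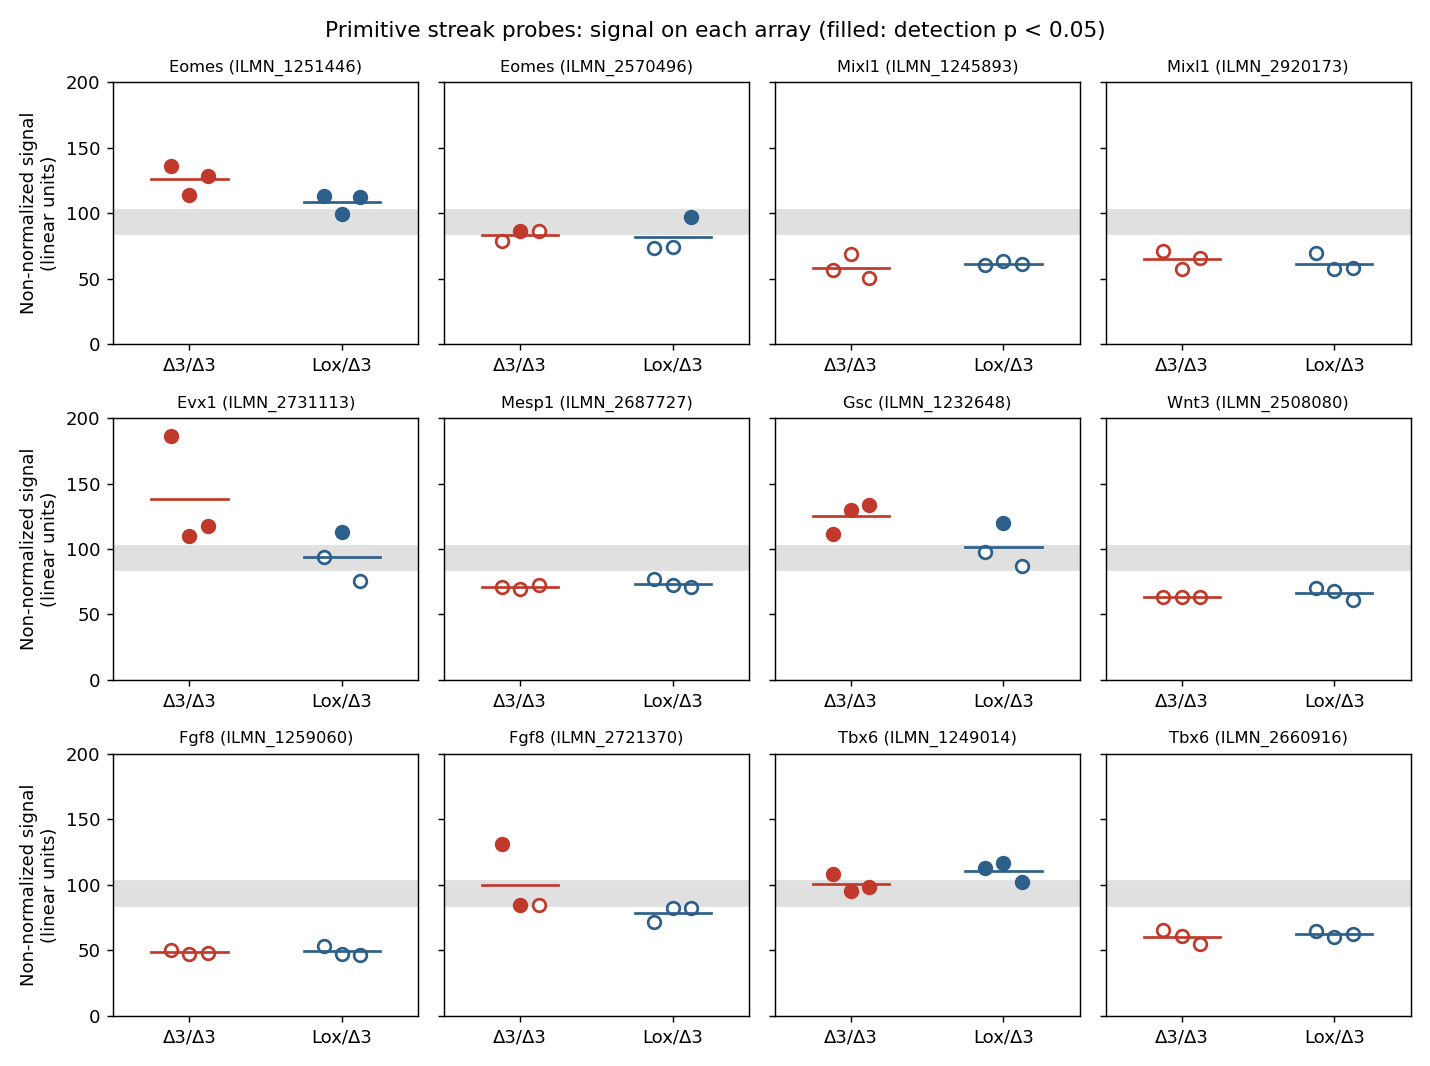
Non-normalized signal (linear units) of the 12 primitive streak probes on each array, Δ3/Δ3 in red and Lox/Δ3 in blue, with filled points where the detection p was under 0.05 and lines at the mean of 3 arrays. The grey band spans the lowest detected signal of the 6 arrays (83.8 to 103), and most points lie in or below it.

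None of the measurable streak genes passed the test between the genotypes. Of the 4 tested members 0 had a limma adjusted p under 0.05, where 140 of 10712 genes, or 1.31%, did (1.03% higher and 0.28% lower in Δ3/Δ3). At an unadjusted p under 0.05 there were 3 of 4, all higher in Δ3/Δ3, where 18.2% of all genes were under it and 9.69% both under it and higher. When each of the 19652 kept probes was tested by itself, 0 of the 4 member probes passed, against 1.15% of all. Evx1 and Gsc were each detected on all Δ3/Δ3 arrays and 1 Lox/Δ3 array, so they passed the filter through the Δ3/Δ3 arrays, and the counts over the tested members are not evidence of a shared direction. The intervals below give the differences that the 6 arrays still allow.

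Eomes encodes the T-box factor eomesodermin, which acts in the streak, in definitive endoderm and in trophoblast. Its probe ILMN_1251446 had log2 values of 6.40, 6.23 and 6.33 on the Δ3/Δ3 arrays, against 5.83, 5.76 and 6.05 on the Lox/Δ3 arrays. Every Δ3/Δ3 array lay above every Lox/Δ3 array, a pattern shown in that direction by 11.3% of all genes tested. The Δ3/Δ3 mean was 6.32 ± 0.088 and the Lox/Δ3 mean 5.88 ± 0.16 (SD, n = 3 each), a difference of 0.44 ± 0.13 (SE), or 1.36-fold, with a 95% interval of 1.1 to 1.68-fold (limma adjusted p = 0.137). The difference was 0.26 both without background correction and in the authors' value table (limma adjusted p = 0.222 and 0.295). With array weights in limma it was 0.53 and passed (adjusted p = 0.0422). The groups of the second probe, ILMN_2570496, overlapped: raw signals were 78.5, 86.1 and 86.1 on the Δ3/Δ3 arrays and 73.2, 74.1 and 97.1 on the Lox/Δ3 arrays. That probe was detected on 1 array of each genotype, its highest value was on Lox/Δ3 array 3, and it was not tested.

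Eomes is shared with trophoblast, whose other markers are therefore given beside it. Of 12 trophectoderm markers 8 were tested and 0 passed in limma. An unadjusted p under 0.05 was found for 3, of which 2 were higher and 1 lower, where 18.2% of all genes were under it. Tfap2c was at 0.87 and Krt7 at -0.73 (limma adjusted p = 0.173 and 0.142). Elf5, Esx1 and Hand1 were detected on no array, and the summed raw signal of the list was 8142 to 10730 on the Δ3/Δ3 arrays and 9603 to 11950 on the Lox/Δ3 arrays. The sums overlapped. Their part in the Eomes value was not tested.

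Evx1 encodes a homeodomain factor of the posterior streak. Its log2 values were 7.07, 6.14 and 6.14 on the Δ3/Δ3 arrays, against 5.33, 6.09 and 5.05 on the Lox/Δ3 arrays. The value of Δ3/Δ3 array 1 was the highest. In the normalized log2 values Lox/Δ3 array 2 lay just under the lower Δ3/Δ3 arrays, so that the groups did not overlap. That pattern was shown in the same direction by 11.3% of all genes tested. In the raw signals the groups overlapped, with 113 on Lox/Δ3 array 2 against 110 on Δ3/Δ3 array 2. The means were 6.45 ± 0.53 and 5.49 ± 0.54 (Δ3/Δ3 and Lox/Δ3, SD, n = 3 each), and the difference of 0.96 ± 0.33 (SE), or 1.95-fold, had a 95% interval of 1.15 to 3.29-fold (limma adjusted p = 0.179). The probe was not above background on 2 of the 3 Lox/Δ3 arrays, with detection p-values of 0.0769 and 0.125. The size of the difference depended on the processing, being 0.57 without the background step and 0.51 with array weights (limma adjusted p = 0.194 and 0.34). Without Δ3/Δ3 array 1 it was 0.65, and without Lox/Δ3 array 2 it was 1.26 (limma adjusted p = 0.373 and 0.122).

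Gsc encodes goosecoid, a homeodomain repressor of the anterior streak and organizer. Its log2 values were 5.92, 6.54 and 6.43 on the Δ3/Δ3 arrays, against 5.44, 6.24 and 5.40 on the Lox/Δ3 arrays. The groups overlapped, since Lox/Δ3 array 2 exceeded Δ3/Δ3 array 1. The difference was 0.60 ± 0.26 (SE), or 1.52-fold, with a 95% interval of 1 to 2.3-fold (limma adjusted p = 0.272). The probe was not above background on 2 of the 3 Lox/Δ3 arrays, with detection p-values of 0.0641 and 0.0502. The size of the difference depended on the processing here too, being 0.34 without the background step and 0.26 with array weights (limma adjusted p = 0.3 and 0.57).

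Tbx6 encodes a T-box factor of presomitic mesoderm that acts downstream of the streak. Its probe ILMN_1249014 was detected on all 6 arrays, with log2 values of 5.84, 5.73 and 5.70 on the Δ3/Δ3 arrays and 5.81, 6.18 and 5.83 on the Lox/Δ3 arrays. The groups overlapped, and the difference was -0.18 ± 0.14 (SE), with a 95% interval of 0.702 to 1.11-fold (limma adjusted p = 0.563). Without Lox/Δ3 array 2, which held the highest value, it was -0.061, and with array weights it was -0.35 (limma adjusted p = 0.895 and 0.165). The second Tbx6 probe, ILMN_2660916, was detected on no array, with raw signals of 54.5 to 65.8 on the Δ3/Δ3 arrays and 60.3 to 64.4 on the Lox/Δ3 arrays.

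**Figure D2:**
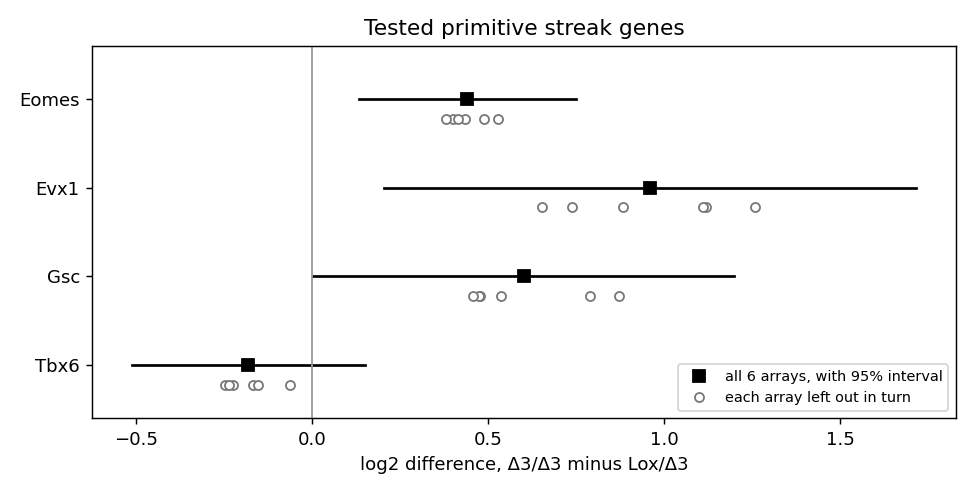
Log2 difference, Δ3/Δ3 minus Lox/Δ3, of the 4 tested streak genes (squares, with 95% intervals from limma), and the same with each of the 6 arrays left out in turn (open circles). Eomes, Evx1 and Gsc lie to the right of 0 and Tbx6 to the left, and the Evx1 values run from 0.65 to 1.26.

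The ligand and the remaining factor genes stayed at background or close to it. Fgf8, which encodes a growth factor needed for cells to leave the streak, had a probe at the edge of detection (ILMN_2721370), with raw signals of 132, 84.3 and 84.8 on the Δ3/Δ3 arrays and 71.8, 81.9 and 82.6 on the Lox/Δ3 arrays. Detection p-values were under 0.05 on Δ3/Δ3 arrays 1 and 2 and on no Lox/Δ3 array, and Δ3/Δ3 array 1 again carried the high value. The mean log2 value was 5.69 on the Δ3/Δ3 arrays, against 5.46 for the mean of the lowest detected values of the Lox/Δ3 arrays, or at least 1.17-fold, with no test because the probe did not pass the filter. This bound rests on Δ3/Δ3 array 1: without it the Δ3/Δ3 mean was 5.36, below 5.46, and no increase could be stated. Its other probe, ILMN_1259060, gave 46.5 to 53.4 units on the 6 arrays with no detection.

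Wnt3, the Wnt ligand that the epiblast needs to form a streak, gave raw signals of 63.4, 63.3 and 63.5 on the Δ3/Δ3 arrays and 70.2, 67.6 and 61.0 on the Lox/Δ3 arrays. Mesp1, a factor of the earliest cardiac and cranial mesoderm, gave 70.8, 69.1 and 72.3 on the Δ3/Δ3 arrays and 76.7, 72.4 and 70.6 on the Lox/Δ3 arrays. For both genes the groups overlapped and no array reached detection. Mixl1, a homeodomain factor of mesendoderm, was detected on no array by either probe, with raw signals of 50.1 to 70.9 on the Δ3/Δ3 arrays and 57.0 to 69.5 on the Lox/Δ3 arrays. When all 45281 probes were tested without a filter, 0 of the 12 member probes passed (limma adjusted p from 0.178 to 1), against 0.0155% of all probes. In that fit 0 of the 8 probes that fail the filter had an unadjusted p under 0.05, and 11.8% of all probes did. An induction too small to lift these transcripts over background was not detectable on these arrays.

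The signals that induce the streak were taken from a list of 32 other ligands, receptors and effectors of the Nodal, BMP, Wnt and FGF pathways, of which 29 were tested. In limma 0 passed. At an unadjusted p under 0.05 there were 4, all lower, where 907 of all 10712 genes were under it and lower. Of the 29, 14 were higher and 15 lower, with a median log2 difference of -0.042 against -0.025 over all genes tested. The 2 with the smallest p were Porcn, which encodes the acyltransferase that lipidates Wnt ligands, at -0.85 ± 0.24 (SE), and Tcf7l2, a TCF factor gene, at -0.49 ± 0.16 (limma adjusted p = 0.12 and 0.168). The largest difference was that of Fgf5, a growth factor gene of the post-implantation epiblast, at 1.09 ± 0.52 (SE, limma adjusted p = 0.323). Fgf5 had log2 values of 7.67, 6.24 and 5.44 on the Δ3/Δ3 arrays, against 5.07, 5.99 and 5.03 on the Lox/Δ3 arrays, so that the groups overlapped. Only 1 Lox/Δ3 array gave a detected Fgf5 signal, against 3 Δ3/Δ3 arrays, so this gene too passed the filter through the Δ3/Δ3 arrays. Its values on Lox/Δ3 arrays 1 and 3 lay below the lowest detected values of those arrays (5.56 and 5.41).

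Among 10 tested antagonists of these signals, of 16 listed, 0 passed in limma. At an unadjusted p under 0.05 there were 2, each higher, where 9.69% of all genes were under it and higher. These were the Nodal inhibitor genes Lefty2, at 1.69 ± 0.58 (SE), and Lefty1, at 1.17 ± 0.44 (limma adjusted p = 0.181 and 0.214), while the list's median was 0.08. Lefty1 had log2 values of 12.16, 11.07 and 11.42 on the Δ3/Δ3 arrays, against 9.99, 11.39 and 9.76 on the Lox/Δ3 arrays. Lefty2 had 11.89, 10.87 and 10.16 on the Δ3/Δ3 arrays, against 8.52, 10.54 and 8.79 on the Lox/Δ3 arrays. For Lefty1, Lefty2, Fgf5 and Evx1 alike, Δ3/Δ3 array 1 was the highest of its genotype and Lox/Δ3 array 2 the highest of the controls. Of all genes tested 9.93% showed this order. It was also shown by the TCF/LEF factor gene Lef1 and by Nes, a neural progenitor marker, whose differences were 0.01 and 0.08. For Fgf5 and Evx1, Lox/Δ3 array 2 was also the only control array with a detected signal.

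Of the 4 tested members 3 (Evx1, Gsc and Tbx6) were highest among the controls on Lox/Δ3 array 2, where 25.8% of all genes were, and 3 (Eomes, Evx1 and Tbx6) were highest among the Δ3/Δ3 arrays on array 1, where 33% of all genes were. Both held for 2 of the 4, Evx1 and Tbx6, and for 9.93% of all genes, while Eomes was lowest among the controls on Lox/Δ3 array 2 and Gsc lowest among the Δ3/Δ3 arrays on array 1. With 4 genes these shares are a description. For Evx1 the Lox/Δ3 values alone ran from 5.05 to 6.09, a wider span than the 0.96 between the genotype means.

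**Figure D3:**
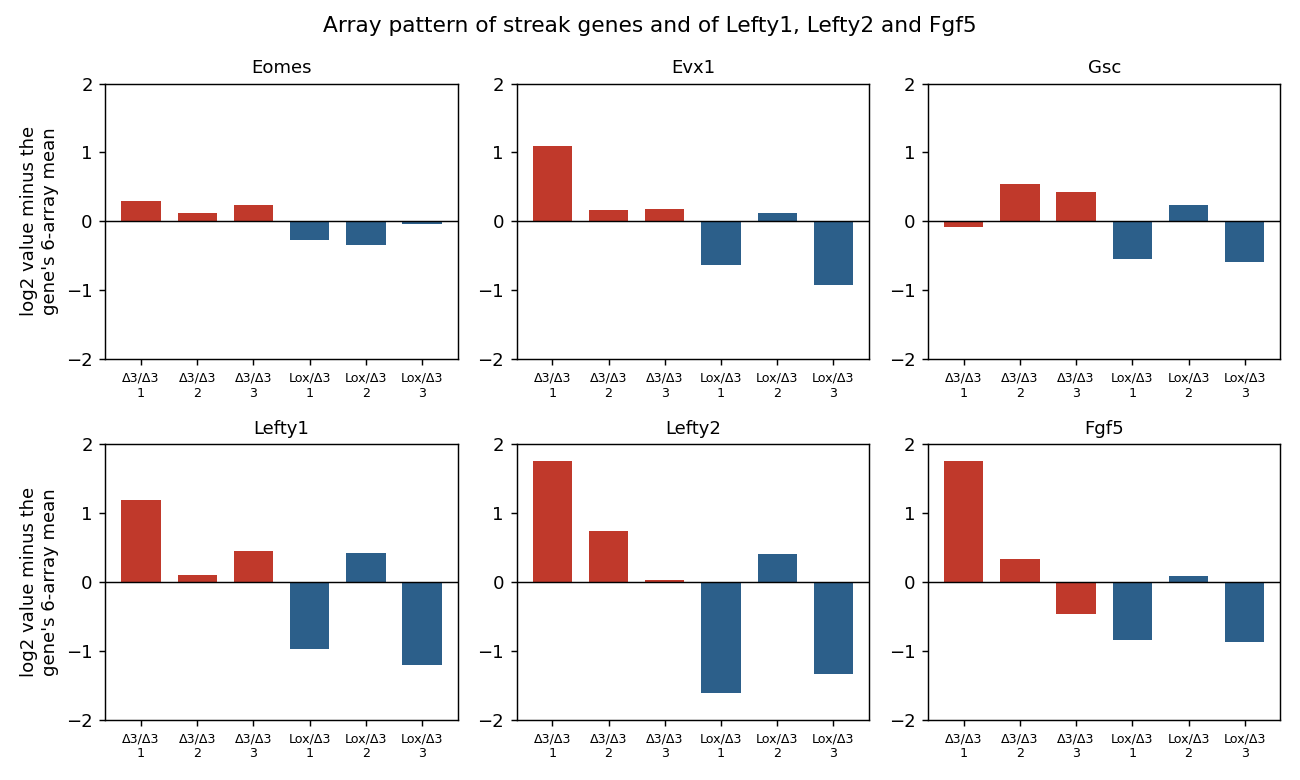
Log2 value on each array minus the 6-array mean of the gene, for the streak genes Eomes, Evx1 and Gsc and for Lefty1, Lefty2 and Fgf5, Δ3/Δ3 in red and Lox/Δ3 in blue. Lox/Δ3 array 2 is the highest control bar in every panel except that of Eomes, and Δ3/Δ3 array 1 is the highest bar for all but Gsc. Of all genes tested 9.93% were highest of their genotype on both of these arrays.

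Other transcription factors of the streak and nascent mesoderm were in part measurable. Of 32 listed, 29 had a probe and 14 of these passed the filter, as 56.2% of all annotated genes did, while 12 were detected on no array, among them Foxa2, Lhx1, Mesp2 and Hand1. In limma 0 passed, and the median was 0.31. At an unadjusted p under 0.05 there were 4 of the 14, all higher, where 9.69% of all genes were under it and higher. Snai2, a repressor of epithelial genes, was at 0.70 ± 0.23 (SE) and the anterior factor gene Otx2 at 0.61 ± 0.21 (limma adjusted p = 0.165 and 0.184), and Isl1, a LIM homeodomain factor gene of cardiac mesoderm, had the largest difference, 0.72 ± 0.28 (limma adjusted p = 0.233). Otx2 had 11.61, 10.96 and 11.12 on the Δ3/Δ3 arrays and 10.29, 10.79 and 10.77 on the Lox/Δ3 arrays. Its groups did not overlap, a pattern shown in that direction by 11.3% of all genes tested. The groups of Isl1 overlapped, and it was detected on 2 of the 3 Lox/Δ3 arrays.

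The ligands, receptors and adhesion genes of nascent mesoderm went both ways. Of 25 listed 13 were tested and 0 passed in limma, and the median was 0.041. At an unadjusted p under 0.05 there were 2 higher and 2 lower, where 18.2% of all genes were under it. The BMP ligand gene Bmp7 was at 0.76 ± 0.24 (SE), the fibronectin receptor subunit gene Itga5 at -0.51 ± 0.17 and Fgf17, a close relative of Fgf8, at -1.0 ± 0.39 (limma adjusted p = 0.147, 0.179 and 0.226). Fgf17 had log2 values of 8.33, 8.21 and 7.57 on the Δ3/Δ3 arrays and 9.68, 9.29 and 8.12 on the Lox/Δ3 arrays, with overlap between the groups.

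Of 14 further T-box genes 3 were tested and 10 were detected on no array. Tbx4, known from limb and allantois, was at 1.22 ± 0.35 (SE, limma adjusted p = 0.126), with 6.83, 6.80 and 7.52 on the Δ3/Δ3 arrays against 5.13, 5.83 and 6.55 on the Lox/Δ3 arrays. Its groups did not overlap, as for 11.3% of all genes tested in that direction, and it was detected on 2 of the 3 Lox/Δ3 arrays. Tbx3, which embryonic stem cells express, was at -0.20 ± 0.12 (limma adjusted p = 0.45). In this list 0 genes passed in limma. An unadjusted p under 0.05 was found for 1, Tbx4, where 9.69% of all genes were under it and higher.

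**Figure D4:**
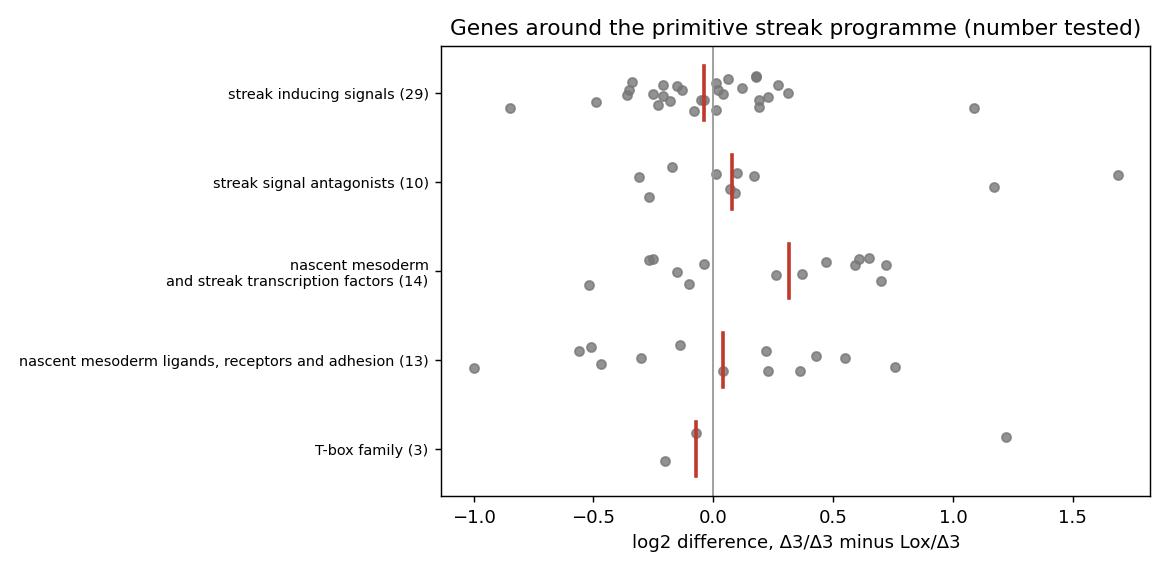
Log2 differences, Δ3/Δ3 minus Lox/Δ3, of the tested genes on 5 lists around the streak programme (points, number tested in brackets), with the median of each list as a red line. The list medians lie between -0.069 and 0.31, and no point belongs to a gene past the limma threshold.

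Markers of other cell types were measured in the same fit, and their part in the streak values was not tested. Of 12 primitive endoderm markers 11 were tested and 0 passed in limma. An unadjusted p under 0.05 was found for 1, Sox7, where 18.2% of all genes were under it. Sox7 was at -1.09 and Gata4 at -0.27 (limma adjusted p = 0.261 and 0.347). Afp was detected nowhere, and the summed raw signal was 7456 to 8944 on the Δ3/Δ3 arrays against 6367 to 21280 on the Lox/Δ3 arrays, the high end being Lox/Δ3 array 3. Of 11 fibroblast markers 4 were tested and 0 passed in limma. An unadjusted p under 0.05 was found for 2, each higher, where 9.69% of all genes were under it and higher. Thy1 was at 1.62 and Mmp2 at 0.97 (limma adjusted p = 0.0523 and 0.0599). The groups of Thy1 and Mmp2 did not overlap, as for 11.3% of all genes tested in that direction. The groups of the others overlapped, with Col1a1 at -0.67 and Fbln2 at 0.23 (limma adjusted p = 0.596 and 0.597). The summed signal of the fibroblast list was 3560 to 3882 on the Δ3/Δ3 arrays and 2256 to 2556 on the Lox/Δ3 arrays without overlap. A sum of raw signals follows its brightest genes, here Mmp2 and Thy1 (mean log2 11.1 and 9.83 on the Δ3/Δ3 arrays). Fbln2 and Col1a1 were dimmer there (7.21 and 6.22), so the sum does not describe the list as a whole. Of the markers 7, among them Col1a2, Col3a1, Dcn, Lum and Postn, were detected on no array. Of the neural progenitor markers with a probe, 8 of 10 listed, 1 was tested, Nes at 0.079, which did not pass (limma adjusted p = 0.936, unadjusted p = 0.822). Sox1, Pax6, Olig2, Zic1 and Msi1 were detected on no array, and the summed signal was 616 to 736 on the Δ3/Δ3 arrays and 596 to 708 on the Lox/Δ3 arrays.

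The genes with the most similar values over the 6 arrays were sought for the 2 members detected on every array. For Eomes these were Mfap5, Prss50 and Fgfrl1, with Pearson r of 0.988, 0.988 and 0.98, and for Tbx6 they were Pnmt, Ndufs3 and Fbxl16, with r of 0.964, 0.96 and 0.952. As a scale for such values, 160 of 10711 genes had an r over 0.9 with Eomes and 20 with Tbx6. These likenesses describe 6 arrays of 2 genotypes and carry no test.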

How the data were processed

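Total RNA of 6 samples, 3 per genotype as the labels give it, was hybridised to Illumina bead arrays after biotin labelling of cRNA, per the labels' protocols. Intensity values before normalization or background subtraction were deposited, each paired with a detection p-value, and within an array a brighter deposited signal never had a larger p-value. The authors' value table holds the same intensity values times 1 constant per array (11.9 to 13.6), which sets the median to 1000. The scanner software is not given in the sources used here. The labels give no slide or scan, so no batch was tested. The arrays' number limits the precision.

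Background was corrected by limma's nec function from the detection p-values (offset 16, which pulls fold changes of weak genes toward 1), quantile normalized and taken to log2. Genes were named from the platform annotation, with symbols updated through RefSeq (GRCm38.p6), and 34885 probes had 1 symbol. Probes detected at p under 0.05 on at least 3 arrays were kept (19652), and the brightest probe on average stood for each of 10712 genes. Genotypes were compared with limma (lmFit, eBayes, two-sided, Benjamini-Hochberg at 0.05 over all genes). Each kept probe was also tested by itself. The code was tested on simulated data.

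Genes were named by a rule: all members and Kdm1a, from each list up to 4 genes past the threshold or else the 2 with the smallest p, the largest difference of each list, and the 3 genes most like each member detected on all arrays. Other genes were named where a list's detection is described. Col1a1 and Fbln2 were chosen after their values were seen, to complete the fibroblast markers tested. Lef1 was also chosen after its values were seen, as a further gene with the array order of Evx1. The members, lists and tests were chosen with earlier results of these data known. R 4.3.3, limma 3.58.1, Python 3.11.15 and matplotlib 3.10.9 were used. Alternatives changed the background correction, offset, normalization, value table, filter, array weights, replicate block and arrays used.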

Additional observations from a re-analysis of the deposited data

How the results depend on the processing

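The signs of Eomes, Evx1, Gsc and Tbx6 held under every alternative run on them, 15 each for Eomes and Tbx6 and 14 each for Evx1 and Gsc, which the filter for detection on all 6 arrays removed. The log2 difference ranged from 0.26 to 0.53 for Eomes, from 0.51 to 1.26 for Evx1, from 0.26 to 0.87 for Gsc and from -0.35 to -0.061 for Tbx6. The number of streak members called, by gene or by probe, was 0 in limma except with array weights, where it was 1 (Eomes), and it was also 0 with each array left out. The number of genes called over all genes was 261 with median scaling, 24 with no filter, 80 with detection on all 6 arrays and 511 with array weights, against 140 as reported. Fewer or more probes were tested under the filters, and the cause of the other shifts was not tested. With each array left out it was 0 to 275, being 0 without any 1 of the Δ3/Δ3 arrays, where 1551 to 1798 genes had an unadjusted p under 0.05. With the replicate number as a block it was 371, and no streak member was called (0). Deviations of same-numbered arrays correlated at 0.358, 0.0668 and 0.402, and the arrays numbered 1 and 3 correlated best with their own number, while Lox/Δ3 array 2 was closer to Δ3/Δ3 array 1 (0.29). The numbers were not used as pairs, and the labels do not say whether they mark a batch. Kdm1a kept its sign, at -1.46 to -1.65 with each array left out. The member signals lie near the detection limit, and without background correction Evx1 was 0.57 and Gsc 0.34, against 0.96 and 0.60 with it.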
